A study of Homo sapiens with 6 samples.

Results

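Receptor tyrosine kinases are cell-surface proteins that bind growth factors outside the cell and phosphorylate tyrosines inside it. The 10 followed here are MET, AXL, EGFR, ERBB2, ERBB3, IGF1R, INSR, FGFR1, FGFR2 and FGFR3, out of 63140 genes in the count table. They and the gene lists set beside them further on were chosen by name, with earlier results of these data known. Each of the 10 matched 1 Ensembl identifier. Of the 10, 9 held enough reads to be tested and AXL did not. RNA came from HEK293T, an immortalised human embryonic kidney line that carries the SV40 large T antigen, transfected with a miR-34a duplex (3 libraries) or with the AllStars negative control (3 libraries) and harvested 18 h later. Both groups were thus transfected cells of 1 line with no other stated alteration, and an untransfected group was not analysed here. The libraries of each group were described as biological replicates. The stated question concerned the structural features of a microRNA bound to its target and the repression that follows.

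For many of these receptors, though not for all, a growth factor brings receptor molecules together in pairs. The phosphorylated tail then recruits adaptors that start the Ras, phosphoinositide 3-kinase and phospholipase C pathways. MET is the receptor of hepatocyte growth factor, AXL of GAS6, EGFR and its ERBB relatives of the epidermal growth factor and neuregulin ligands, IGF1R and INSR of the insulin-like growth factors and insulin, and the FGFR proteins of the fibroblast growth factors. miR-34a is induced by p53. Like other microRNAs it guides Argonaute to 3′ untranslated regions (UTRs) by base pairing of its seed, and MET and AXL are both long-studied targets of it.

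The mature guide strand and the seed matches it could pair with are shown first, because the values of each receptor are set beside them further on. The mature sequence is from RefSeq (GRCh38.p14), with the seed, bases 2 to 8, in capitals.
hsa-miR-34a-5p: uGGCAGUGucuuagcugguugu
The motifs searched on the transcript strand of each 3′ UTR were the 8mer CACTGCCA, the 7mer-m8 CACTGCC, the 7mer-A1 ACTGCCA and the 6mer ACTGCC. They overlap, and each position took its longest class. The main search used the GENCODE transcript with the longest coding sequence (release 29, GRCh38). MET, AXL and FGFR1 held a 7mer or 8mer there, ERBB2 and IGF1R held only 6mers, and EGFR, ERBB3, INSR and FGFR3 held none of these motifs. The chosen FGFR2 transcript has no annotated 3′ UTR. Of all 12895 tested genes with a 3′ UTR to search, 20.9% held a 7mer or 8mer, 10% a 6mer as the strongest match and 69.1% none.

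The matches of MET and AXL are written with the bases upstream of them, 30 bases in all, 5′ to 3′, with the match in capitals. Both MET matches are of the 7mer-m8 class. The one farther from the stop codon lies only in the longer annotated 3′ UTR of 2262 nt, not in the 218 nt of the transcript with the longest coding sequence.
MET, 51 nt after the stop codon, chr7:116796175-116796181, plus strand: acactttgtccaatggttttttCACTGCCt
MET, 2165 nt after the stop codon, chr7:116798289-116798295, plus strand: cttctaagaattagatacttgtCACTGCCt
AXL, 44 nt after the stop codon, chr19:41259948-41259955, plus strand: ccctctcaggatccaagctaagCACTGCCA
The duplex of the whole microRNA with these windows had a predicted free energy (RNAduplex) of -17.1 and -17.2 kcal/mol for MET and -26.5 kcal/mol for AXL. The median was -18.9 kcal/mol over 2123 7mer-m8 matches of all genes and -19.4 kcal/mol over 893 8mer matches, and the 10th percentile of the latter was -24.2 kcal/mol. AXL held the match with the lowest predicted energy among these receptors, in a gene that was close to silent in these cells.  The bases AGCT, which pair with bases 13 to 16 of miR-34a, were searched for only upstream of the position facing them. None of the 6 matches in the chosen transcripts had AGCT in that upstream stretch. Over all genes 5.37% of 7mer-m8, 5.26% of 8mer and 6.29% of 6mer matches had it there. The facing position itself was not searched. In the AXL window above, AGCT lies between the searched stretch and the match, and whether it pairs was not tested.

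Longer annotated 3′ UTRs added matches to further receptors. INSR held a 7mer-m8 and a 7mer-A1 in an alternative 3′ UTR of 4801 nt and no match in the 429 nt of the chosen transcript. FGFR2 held a 7mer-A1 in 8 of its 15 annotated 3′ UTRs. With every annotated 3′ UTR counted, 5 of the 10 genes had a 7mer or 8mer, against 3 with the chosen transcripts. These 3 sequences are shown because INSR and FGFR2, unlike MET and FGFR1, did not pass the test of a change.
INSR, 3150 nt after the stop codon, chr19:7113900-7113906, minus strand: ttgctgctcttgtacttttaggCACTGCCc
INSR, 3256 nt after the stop codon, chr19:7113794-7113800, minus strand: accagtttcatttatttgactctACTGCCA
FGFR2, 215 nt after the stop codon, chr10:121479636-121479642, minus strand: gaagaaggtttctggagcagtggACTGCCA
Counts per gene do not show which 3′ end a transcript had, so it is not known from these data which of these matches were present in the cells. The 6mers of IGF1R lay 119 and 713 nt after its stop codon and that of ERBB2 406 nt after its own.

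**Figure D1:**
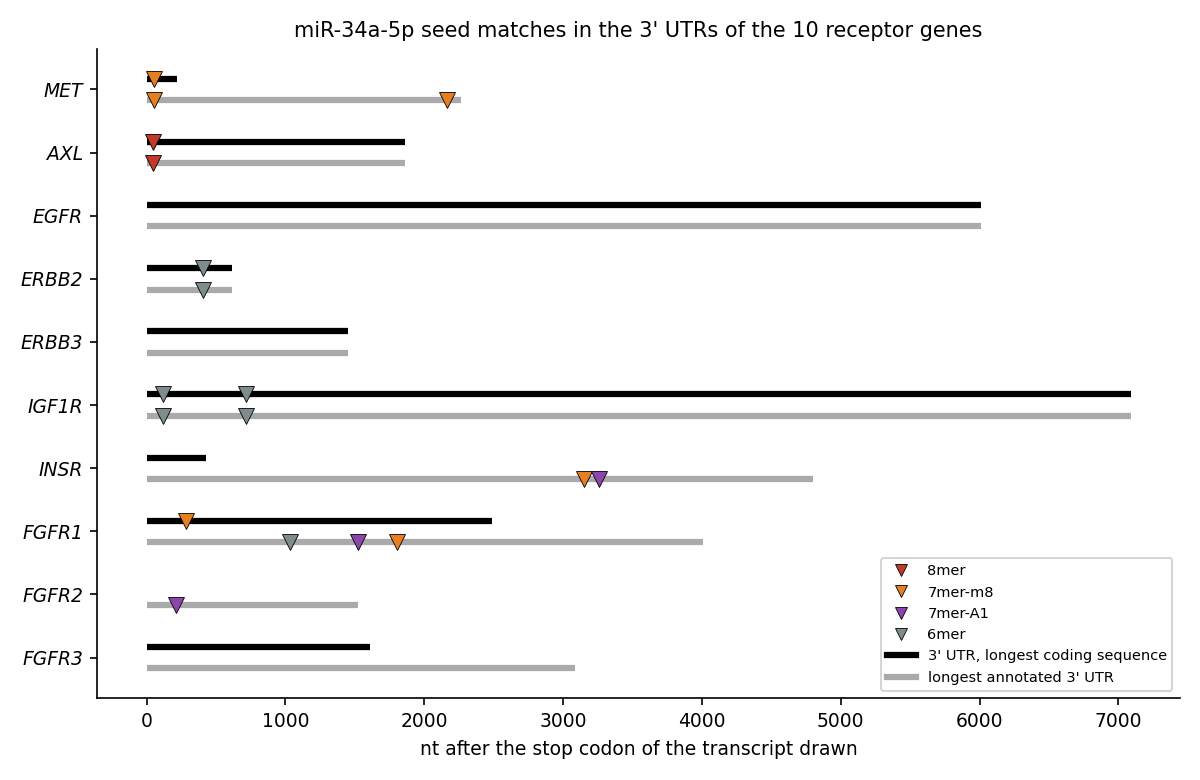
Positions of miR-34a-5p seed matches (triangles, coloured by class) along the 3′ UTR of each receptor gene, in nt after the stop codon of the transcript drawn. Black bars are the transcript with the longest coding sequence (none for FGFR2), grey bars the longest annotated 3′ UTR. MET and AXL have matches 51 and 44 nt after the stop codon, while the INSR matches lie only in the long 3′ UTR.

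Library totals ranged from 24728662 to 36650331 counts, and mitochondrially encoded genes took 2.85 to 4.71% of a library. All 6 HEK293 marker genes examined were tested, with a summed level of 660 to 701 CPM (library-scaled counts, from TMM-adjusted library sizes) in the control and 616 to 644 CPM with miR-34a. Among them VIM and PAX2 did not pass, NEFL, NEFM and INA fell and LIN28B rose. Of 9 markers of other cell types 6 were too low to test, CD3E had no read, and their sum was 24.2 to 30.6 CPM in the control and 24.0 to 26.1 CPM with miR-34a, most of it COL1A1 at 23.4 ± 3.38 and 22.01 ± 1.11 CPM (SD, n = 3). The part of these differences in the receptor results was not tested. In bulk RNA a lower value can mean fewer cells with the transcript or less RNA per cell, which cannot be told apart here.

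MET and FGFR1 fell with miR-34a, and no other receptor of the 10 passed. Genes were called at an adjusted p under 0.05 in the edgeR quasi-likelihood test over 17427 genes, of which 12.1% were called in either direction, 6.7% lower and 5.38% higher. Against this background 2 of the 9 tested receptors fell and none rose. At an unadjusted p under 0.05 the same test also gave 2 lower and none higher, as did DESeq2 after adjustment. The median log2 fold change of the 9 was -0.12, against 0.00 over all tested genes. CPM did not overlap between the groups for 5 of the 9 (MET, FGFR1, FGFR3, ERBB3 and INSR), where 27.3% of all tested genes did not overlap.

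MET stood at 66.9, 65.1 and 67.7 CPM in control replicates 1, 2 and 3 and at 34.6, 35.3 and 36.2 CPM in the miR-34a replicates. Every miR-34a library was far below every control library, and the spread within each group was small. The log2 fold change was -0.91 ± 0.07 (SE, 95% interval -1.06 to -0.76, edgeR adjusted p = 2.1e-09), which left 53.2% of the control level. MET ranked 152 from the lowest among 17427 log2 fold changes. Its fall lay between -0.93 and -0.90 in all 12 alternative fits, each of them past the threshold. No other gene of the annotation shares exonic sequence with MET.

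FGFR1, a fibroblast growth factor receptor active in mesenchymal and neural tissue, had a smaller fall. Its 7mer-m8 match lay 282 nt after the stop codon in the last exon, with a predicted duplex energy of -21.8 kcal/mol. A 7mer-A1 (-17.0 kcal/mol) and a 6mer lay only in 2 of its 12 annotated 3′ UTRs, among them the longest, of 4008 nt. In the chosen transcript the 6mer lies in the coding sequence and the 7mer-A1 is absent. Its levels were 64.7, 70.9 and 66.0 CPM in the control and 46.6, 45.5 and 49.2 CPM with miR-34a, again without overlap. The log2 fold change was -0.51 ± 0.07 (SE, 95% interval -0.66 to -0.36, edgeR adjusted p = 1.6e-05), or 70.1% of the control level. The 95% intervals of MET and FGFR1 did not overlap, although the difference between both falls was not itself tested. FGFR1 shares 1% of its exonic length with LETM2 on the opposite strand, and the strand setting of the counting is not known. LETM2 was at 4.84 CPM in the control and 6.18 CPM with miR-34a, a log2 fold change of 0.36 (edgeR adjusted p = 0.13).

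**Figure D2:**
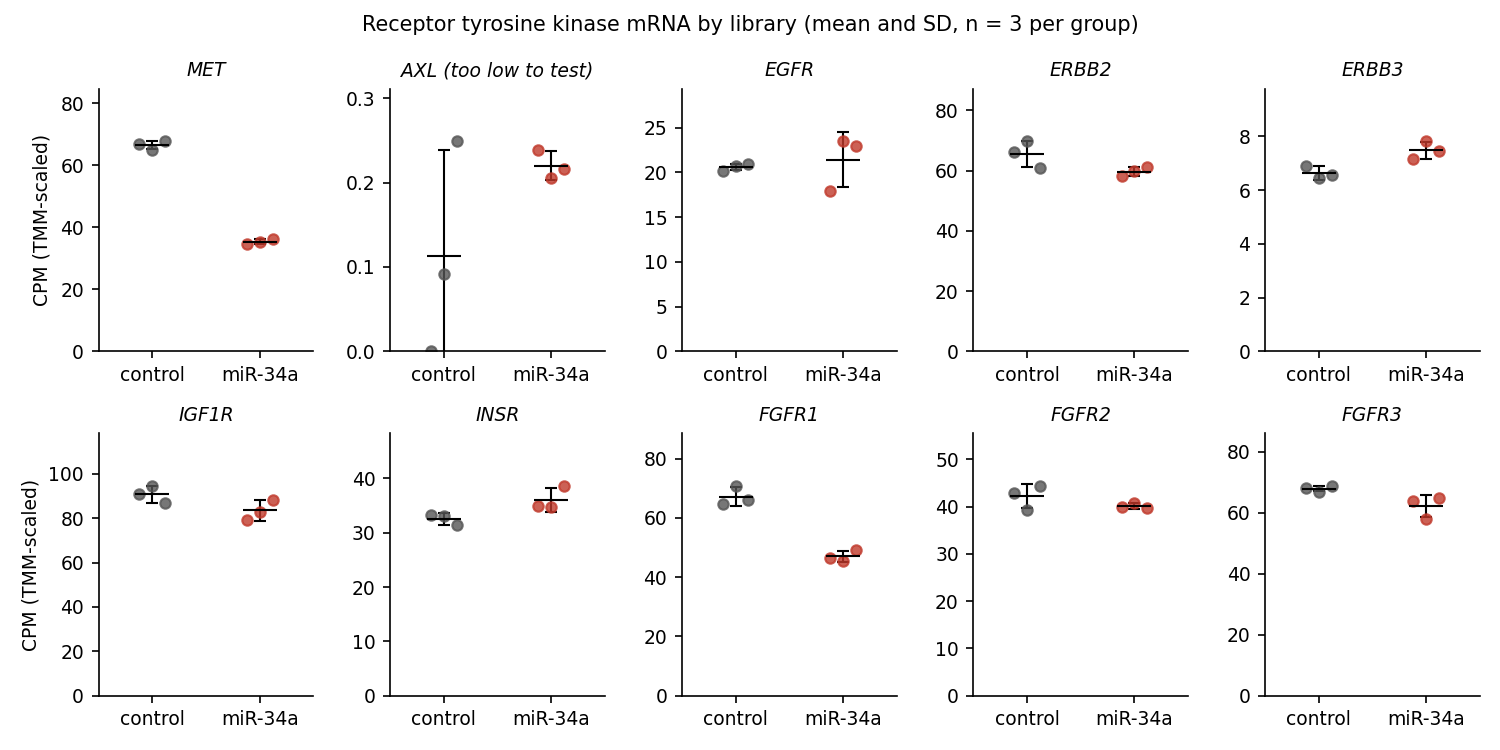
TMM-scaled CPM of each receptor gene in each library (points), with the group mean and SD (bars, n = 3 per group); each panel has its own linear axis from 0. MET and FGFR1 are lower in every miR-34a library than in any control library, and AXL stays under 0.25 CPM.

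The remaining fibroblast growth factor receptors did not pass. FGFR2, which signals in many epithelia, stood at 42.9, 39.4 and 44.4 CPM in the control and 39.9, 40.9 and 39.7 CPM with miR-34a. The groups overlapped, with a log2 fold change of -0.07 ± 0.08 (SE, 95% interval -0.23 to 0.08, edgeR adjusted p = 0.62). FGFR3, a restraint on long-bone growth, was at 68.0, 66.9 and 68.9 CPM in the control and 63.8, 58.1 and 64.8 CPM with miR-34a. All miR-34a libraries were lower, but the log2 fold change of -0.13 ± 0.07 (SE, 95% interval -0.27 to 0.02) did not pass (edgeR adjusted p = 0.29). Per kilobase of exon, FGFR1 made up 15.8 to 17.1% of the summed level of FGFR1, FGFR2, FGFR3 and FGFR4 in the control libraries and 12.8 to 13.5% in the miR-34a libraries. With 3 libraries in each group an exact permutation test cannot give a p below 0.1, so the shares here and below are given as values.

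None of the ERBB receptors among the 10 passed. EGFR, the receptor of epidermal growth factor, was at 20.2, 20.7 and 20.9 CPM in the control and 17.9, 23.5 and 22.95 CPM with miR-34a. The control libraries were nearly equal, while the miR-34a libraries lay on both sides of them, and the log2 fold change was 0.06 ± 0.10 (SE, 95% interval -0.14 to 0.26, edgeR adjusted p = 0.77). ERBB2, the family member without a known ligand of its own, was at 66.0, 69.7 and 61.0 CPM in the control and 58.2, 59.9 and 61.1 CPM with miR-34a, groups that just overlapped. Its log2 fold change was -0.13 ± 0.07 (SE, 95% interval -0.28 to 0.01, edgeR adjusted p = 0.26). ERBB2 shares 5.53% of its exonic length with MIEN1 (24.7 CPM in the control) and 1.88% with PGAP3 (10.5 CPM) on the opposite strand, and neither of these genes passed.

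ERBB3, a neuregulin receptor with little kinase activity, was the lowest of the tested 9. It stood at 6.91, 6.43 and 6.56 CPM in the control and 7.15, 7.81 and 7.46 CPM with miR-34a. The groups did not overlap, yet its interval was the widest of the 9, and the log2 fold change of 0.17 ± 0.13 (SE, 95% interval -0.09 to 0.44) did not pass (edgeR adjusted p = 0.45). Per kilobase of exon, ERBB2 made up 69.2 to 72.0% of the summed EGFR, ERBB2, ERBB3 and ERBB4 level in the control libraries and 65.3 to 68.9% in the miR-34a libraries.

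The insulin and insulin-like growth factor receptors, close paralogues, had estimates on opposite sides of 0 and neither passed. IGF1R stood at 90.8, 94.6 and 86.6 CPM in the control and 79.3, 82.9 and 88.2 CPM with miR-34a, with overlap. Its log2 fold change was -0.12 ± 0.07 (SE, 95% interval -0.26 to 0.03, edgeR adjusted p = 0.32). INSR was at 33.2, 33.1 and 31.4 CPM in the control and 34.9, 34.8 and 38.7 CPM with miR-34a, higher in every miR-34a library. Its log2 fold change of 0.15 ± 0.08 (SE, 95% interval -0.01 to 0.31) did not pass (edgeR adjusted p = 0.24). IGF1R made up 67.2 to 68.2% of the summed level of both genes per kilobase of exon in the control libraries and 63.0 to 64.1% in the miR-34a libraries.

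Across the 7 tested receptors that did not pass, 4 estimates were below 0 and 3 above. The lowest bound of their 95% intervals was a log2 fold change of -0.28 and the highest 0.44. For none of these 7 did the interval reach the fall of FGFR1 or MET.

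AXL was too low to test. A gene needed about 0.325 CPM in 3 libraries to enter the fit. AXL had 0, 3 and 8 counts in the control libraries and 6, 6 and 8 counts in the miR-34a libraries, 11 and 20 counts in all. Its highest level in any library was 0.249 CPM. The control libraries spread from no read to the highest value, so a fall of AXL was not detectable at this depth, and AXL did not reach the level needed for a test in any miR-34a library. With no filter the estimate was 0.87 (edgeR adjusted p = 0.65).

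**Figure D3:**
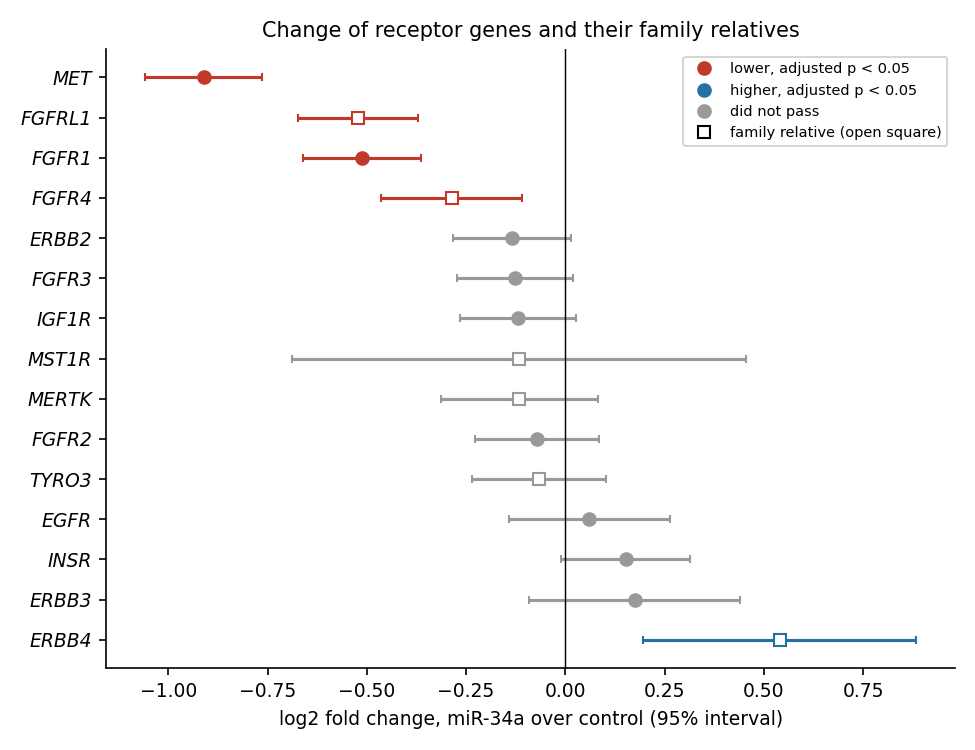
Log2 fold change (miR-34a over control) with its 95% interval for the 9 tested receptors (filled circles) and the 6 tested family relatives (open squares), coloured by the edgeR call. MET, at -0.91, and FGFR1, at -0.51, stand apart from the 7 receptors whose intervals include 0.

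Levels differed widely between the receptors. Per kilobase of annotated exon, FGFR3 was highest in the control at 14.01 ± 0.198 CPM per kb (SD, n = 3), followed by MET at 9.45 ± 0.193, IGF1R at 6.505 ± 0.286, ERBB2 at 6.35 ± 0.423, FGFR2 at 5.57 ± 0.342, FGFR1 at 4.85 ± 0.235, INSR at 3.11 ± 0.0987, EGFR at 1.65 ± 0.0296, ERBB3 at 0.734 ± 0.0274 and AXL at 0.0220 ± 0.0244 CPM per kb. Only IGF1R and ERBB2 were neighbours whose library ranges overlapped. With miR-34a, MET was at 5.02 ± 0.112 CPM per kb and ranked 5, behind FGFR3, IGF1R, ERBB2 and FGFR2, and FGFR1 at 3.40 ± 0.134 ranked 7, just behind INSR at 3.46 ± 0.211. The share of MET in the summed level of the 10 genes was 17.6 to 18.5% in the control libraries and 11.2 to 11.5% in the miR-34a libraries. Lengths from the chosen transcript alone gave ERBB2 rank 2 and MET rank 3 in the control.

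Genes whose CPM ran most like MET over the 6 libraries were ACSL4, an acyl-CoA synthetase (Pearson r = 0.9994), the transcription factor HAND1 (r = 0.9974) and the receptor LGR4 (r = 0.9972), with log2 fold changes of -1.01, -0.92 and -0.75. They were the 3 highest of 10279 genes compared, all of them fell, and the 6 points include the step between both groups. ACSL4 and LGR4 held an 8mer in the chosen 3′ UTR, and HAND1 held no match there. For AXL the same search gave MTRFR, CCDC25 and ZNF182 (r = 0.979, 0.9784 and 0.9775), over a gene with 0 to 8 counts a library.

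Family relatives outside the 10 moved in part. Of 7 listed, 6 were tested, 2 fell and 1 rose (50% called, of few genes, against 12.1% of all tested genes), with a median log2 fold change of -0.12. FGFRL1, a fibroblast growth factor receptor that lacks a kinase domain, stood at 51.6, 53.8 and 52.7 CPM in the control and 35.6, 38.3 and 36.2 CPM with miR-34a. It fell by 0.52 ± 0.07 on the log2 scale (SE, edgeR adjusted p = 1.5e-05), a value close to that of FGFR1, and it also held a single 7mer-m8 in the chosen 3′ UTR, shown here for comparison.
FGFRL1, 173 nt after the stop codon, chr4:1025520-1025526, plus strand: gacacacacacacagacacacaCACTGCCt
FGFR4, which holds no match in the chosen 3′ UTR, fell, with a log2 fold change of -0.29 ± 0.09 (SE, edgeR adjusted p = 0.029), from 26.4 ± 1.67 to 21.7 ± 0.979 CPM (SD, n = 3). It lost its call when control library 2 or 3 was left out, or library 2 or 3 of the miR-34a group (adjusted p = 0.075 to 0.14), and with no filter (adjusted p = 0.053). ERBB4, a neuregulin receptor, rose from 3.14 ± 0.192 to 4.56 ± 0.370 CPM, a log2 fold change of 0.54 ± 0.17 (edgeR adjusted p = 0.034), and kept its call only without miR-34a replicate 1 among the fits that left out 1 library (otherwise adjusted p = 0.054 to 0.14). Of the AXL family, TYRO3 was at 41.3 ± 2.46 and 39.6 ± 3.76 CPM and MERTK at 18.3 ± 0.643 and 16.9 ± 1.59 CPM, and neither passed. MST1R, the relative of MET, was at 1.37 ± 0.342 and 1.27 ± 0.134 CPM with an interval from -0.69 to 0.46. INSRR, with 1 to 5 counts, was too low to test.

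Of 42 listed receptor kinases of other families, 33 were tested, 5 fell and 1 rose, with a median log2 fold change of -0.05. The share called was 18.2%, against 12.1% of all tested genes, among which falls also outnumbered rises (1167 and 938). KIT, the stem cell factor receptor, fell from a mean of 20.01 ± 1.08 to one of 11.8 ± 1.13 CPM (SD, n = 3), with an estimated log2 change of -0.75 ± 0.10 (SE, edgeR adjusted p = 8.1e-06). The ephrin receptor EPHB2 fell from 23.8 ± 2.34 to 15.1 ± 0.508 CPM (-0.66 ± 0.09, edgeR adjusted p = 2.1e-05). The neurotrophin receptor NTRK2 fell from 2.73 ± 0.530 to 1.39 ± 0.491 CPM (-0.95 ± 0.25, edgeR adjusted p = 0.014), a call lost when control library 2 was left out, or library 1 of the miR-34a group (adjusted p = 0.12 and 0.070). The ephrin receptor EPHA7 rose from 48.4 ± 4.71 to 61.7 ± 0.677 CPM (0.35 ± 0.08, edgeR adjusted p = 0.0025). Leaving out 1 library at a time left 3 or 4 falls and 1 rise; 3 falls were left in the absence of control library 2 or of library 1 or 2 of the miR-34a group. KIT, EPHB2 and EPHA7 kept their calls in each of these fits.

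The receptor kinases were also counted by seed match. Of all 58 receptor tyrosine kinases listed, 47 were tested, 8 fell and 2 rose (21.3% called, against 12.1% of all tested genes). Among the 9 with a 7mer or 8mer in the chosen 3′ UTR, 6 fell (MET, FGFR1, KIT, EPHB2, EPHA4 and RET), none rose by edgeR, and the median log2 fold change was -0.58. RET, the GDNF receptor (-0.58 ± 0.17, edgeR adjusted p = 0.022), lost its call in 4 of the 6 fits with 1 library left out (adjusted p = 0.051 to 0.088): those lacking control library 1 or 2, or library 2 or 3 of the miR-34a group. At an unadjusted p under 0.05 none of the other 3 was past it: PDGFRA was at -0.66 ± 0.34 (SE, edgeR adjusted p = 0.24), LMTK3 at -0.20 ± 0.16 (adjusted p = 0.50) and ROR1 at 0.16 ± 0.11 (adjusted p = 0.40). Of 32 with no match in the chosen 3′ UTR 1 fell (FGFR4) and 2 rose (ERBB4 and EPHA7), with a median of -0.02. Of 4 with only a 6mer 1 fell (NTRK2). The 32 include INSR, and FGFR2 was not classed, although both hold a match in another annotated 3′ UTR and neither passed. Alternative 3′ UTRs were searched only for the 10 receptors. Over all tested genes 19.4% of those with a 7mer or 8mer fell (median log2 fold change -0.08) and 4.88% of those with no match (median 0.01). These are counts over genes and no test was made of them. The strongest match of KIT is an 8mer, as in AXL, and is shown for comparison with it.
KIT, 1005 nt after the stop codon, chr4:54739562-54739569, plus strand: ggctcccacaggagtgggaaaaCACTGCCA
Its predicted duplex energy was -18.1 kcal/mol, above that of AXL.

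No ligand of these receptors passed, and most were too low to test. Of 36 listed, 14 were tested, with a median log2 fold change of -0.09; edgeR and DESeq2 each called none, and at an unadjusted p under 0.05 edgeR gave 1 lower and none higher. HGF, the ligand of MET, and IGF1 were among the 22 that were too low to test. PROS1, a ligand of the AXL family, was at 22.2 ± 1.501 and 20.6 ± 3.11 CPM (SD, n = 3), and FGF2 at 19.0 ± 1.44 and 21.7 ± 2.64 CPM. FGF2 held a 7mer-m8 in the chosen 3′ UTR, with an estimate above 0, and PROS1 held no match there. GAS6, the AXL ligand, was at 9.94 ± 1.85 and 9.51 ± 1.46 CPM. TGFA, an EGFR ligand with an 8mer match, was the one with an unadjusted p under 0.05, at 1.21 ± 0.202 and 0.620 ± 0.213 CPM (edgeR adjusted p = 0.077), and was named after its values were seen. One ligand was called lower without control replicate 1 or without miR-34a replicate 3.

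Proteins that process, bind or trap ligands and receptors fell in 4 of 17 tested genes of 27 listed (23.5% called, against 12.1% of all tested genes, median log2 fold change -0.06). None rose by edgeR or DESeq2, and 1 was higher at an unadjusted p under 0.05. The heparan sulphate proteoglycans SDC1 and GPC1, which present growth factors at the cell surface, fell from 14.1 ± 2.74 to 9.14 ± 0.640 CPM and from 26.9 ± 3.07 to 18.7 ± 0.419 CPM (SD, n = 3). Their log2 fold changes were -0.63 ± 0.13 (SE, edgeR adjusted p = 0.0010) and -0.53 ± 0.09 (edgeR adjusted p = 0.00022). IGFBP2, which binds insulin-like growth factors, was at 51.2 ± 7.31 and 41.7 ± 2.47 CPM (-0.30 ± 0.09, edgeR adjusted p = 0.025), with the call lost in the absence of control library 2 (adjusted p = 0.24) and of library 2 of the miR-34a group (adjusted p = 0.15), and also with scaling to library size alone (adjusted p = 0.052). The number of falls was 2 to 6 with 1 library left out, lowest without control replicate 2, where 1 gene also rose. SDC1 held a 7mer-m8 in the chosen 3′ UTR, while GPC1 and IGFBP2 held no match there.

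Adaptors and proximal effectors moved both ways. Of 28, all tested, 2 fell and 3 rose (17.9% called, against 12.1% of all tested genes), with a median log2 fold change of -0.02. PIK3R3, a regulatory subunit of phosphoinositide 3-kinase, rose from a mean of 47.5 ± 1.32 to one of 64.1 ± 1.44 CPM (SD, n = 3), with an estimated log2 change of 0.43 ± 0.07 (SE, edgeR adjusted p = 0.00010), and kept its call in every fit. The catalytic subunit PIK3CA was at 0.35 ± 0.09 (adjusted p = 0.016), a call lost when control library 2 was left out, or library 2 or 3 of the miR-34a group (adjusted p = 0.052 to 0.11). IRS4, an insulin receptor substrate and by far the highest gene of this list, was at 2034 ± 178 and 2464 ± 251 CPM (0.28 ± 0.08, edgeR adjusted p = 0.023). Its call was lost when control library 2 or 3 was left out, or library 3 of the miR-34a group (adjusted p = 0.091 to 0.19). The tyrosine kinase SRC (-0.29 ± 0.08, edgeR adjusted p = 0.016) lost its call when control library 2 was left out, or library 1 or 2 of the miR-34a group (adjusted p = 0.065 to 0.073). PLCG1, phospholipase C gamma (-0.22 ± 0.07, edgeR adjusted p = 0.033), lost it with any 1 library left out (adjusted p = 0.050 to 0.16) and with no filter (adjusted p = 0.057). Counts ranged from 0 to 2 falls and from 1 to 5 rises over these fits. In the chosen 3′ UTRs the strongest match was an 8mer in SRC, a 7mer-A1 in PLCG1 and a 6mer in PIK3R3. PIK3CA and IRS4 held none.

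Of 24 listed negative regulators, 22 were tested and 3 rose, with a median log2 fold change of 0.06. The share called, 13.6%, was near the 12.1% of all tested genes. Neither edgeR nor DESeq2 called a fall, and 1 gene was lower at an unadjusted p under 0.05. SPRED2, an inhibitor of Raf activation, had a log2 fold change of 0.30 ± 0.08 (SE, edgeR adjusted p = 0.017), the deubiquitinase USP8, which acts on endocytosed receptors, 0.29 ± 0.08 (edgeR adjusted p = 0.013) and SPRY2, a feedback inhibitor of receptor signalling, 0.28 ± 0.09 (edgeR adjusted p = 0.036). All 3 were sensitive to single libraries. SPRED2 lost its call when control library 2 was left out, or library 1 or 3 of the miR-34a group (adjusted p = 0.065 to 0.080), USP8 when control library 2 or 3 was left out, or library 3 of the miR-34a group (0.051 to 0.087) and SPRY2 when control library 1 or 3 was left out, or library 1 or 2 of the miR-34a group (0.081 to 0.12). Between 1 and 2 rises were left in these fits. USP8, which rose, held a 7mer-m8 in the chosen 3′ UTR. SPRY2 held no match there, and SPRED2 was not classed.

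Genes known as transcriptional outputs of the ERK pathway did not move one way. Of 10 listed, 9 were tested, 2 fell and 1 rose (33.3% called, of few genes, against 12.1% of all tested genes), with a median log2 fold change of 0.06. CCND1, a G1 cyclin with a 7mer-A1 match, fell from a mean of 17.7 ± 0.195 to one of 10.6 ± 1.45 CPM (SD, n = 3), with an estimated log2 change of -0.74 ± 0.11 (SE, edgeR adjusted p = 2.6e-05), also in each fit that left out 1 library. EPHA4, with a 7mer-m8 and a 7mer-A1, was at -0.32 ± 0.09 (edgeR adjusted p = 0.024) and lost its call when control library 3 was left out, or library 1 or 2 of the miR-34a group (adjusted p = 0.062 to 0.16). SPRY2, counted in the preceding list too, was the one that rose, and EPHA4 was also counted among the receptor kinases of other families. DUSP6, a phosphatase induced by ERK, was at 1.03 ± 0.353 and 1.06 ± 0.150 CPM and did not pass. With 1 library left out the list gave 1 or 2 falls and 0 or 1 rise.

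**Figure D4:**
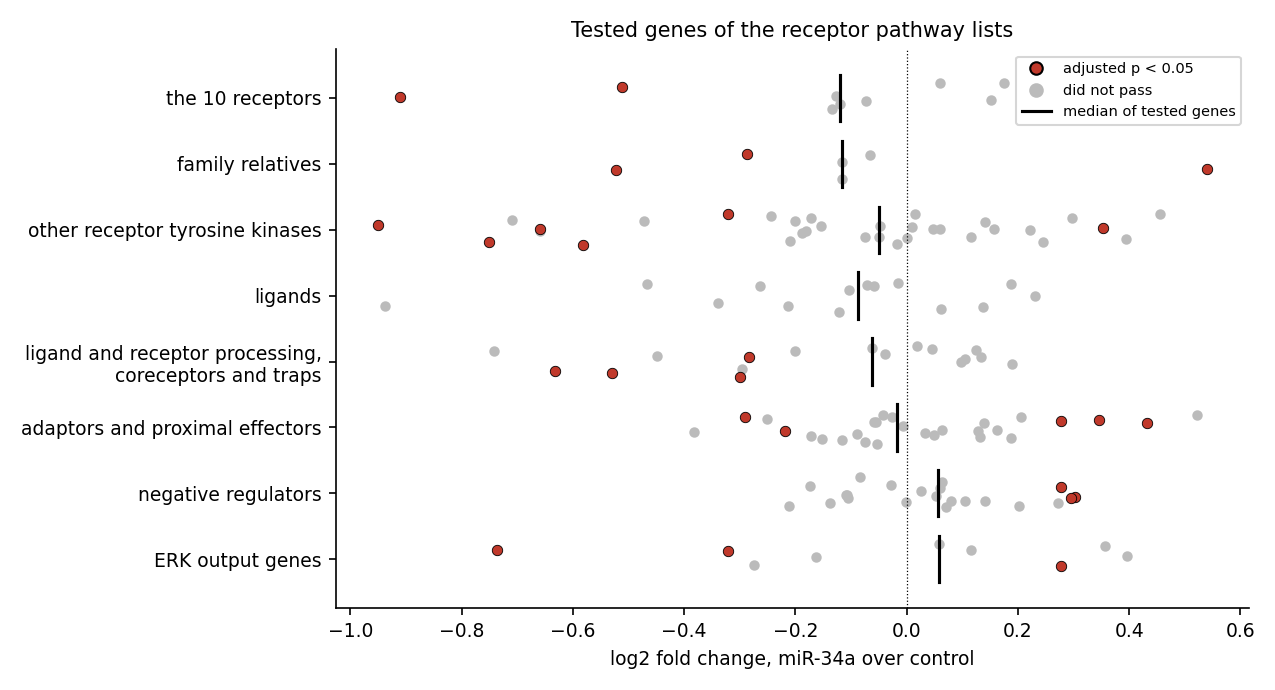
Log2 fold change (miR-34a over control) of every tested gene in the receptor list and the 7 pathway lists; dark bars are list medians, red points passed the edgeR test. MET is at -0.91 and CCND1 at -0.74, and the list medians lie between -0.12 and 0.06.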

How the data were processed

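RNA sequencing of 6 HEK293T libraries was used. The authors deposited 1 table of unnormalised counts, in whole reads assigned to each Ensembl gene. Per the submitters' processing notes the tools included edgeR 3.42.4, Subread 2.0.3 with featureCounts, and STAR 2.7.11a, and the genome was GRCh38. Their annotation release, strand setting and handling of multimapped reads: not given in the sources used here. Symbols were matched for 58531 of 63140 identifiers. Genes were kept with filterByExpr (minimum count 10, total 15), scaled by TMM and tested with the edgeR 4.0.16 quasi-likelihood test (R 4.3.3), modelling group alone, with Benjamini-Hochberg adjustment over 17427 genes. SE is the log2 fold change over the root of F. CPM uses the TMM library size. Levels per kilobase use the union of GENCODE 29 exons. That release has no MANE Select tags, so the planned fallback, the longest coding sequence, was used. 3′ UTRs under 50 nt were not classed. Duplex energies are from RNAduplex 2.7.2.

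The members, the pathway lists and the rule for named genes were chosen with earlier results of these data known. The rule names all 10 receptors. From each other list it names up to 3 called genes in each direction with a mean of at least 1 CPM, or the 2 highest where none is called, and it adds the 3 genes most like MET and AXL. GAS6, TGFA, DUSP6, the relatives that did not pass, EPHA4 and RET as receptors, PDGFRA, LMTK3 and ROR1 were named after their values were seen.

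On counts simulated for this comparison (17039 genes tested), 83% of 100 genes changed 1.5-fold and 99% of 100 changed 2-fold were recovered, with 3.7% false calls. The chi-square per degree of freedom between libraries of 1 group was 8.39 to 15.98, so none looked like a duplicate. Alternatives were DESeq2 1.42.0, other scaling, other filters, the replicate number as a block and leaving out each library.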

Additional observations from a re-analysis of the deposited data

How the results depend on the processing

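For MET and FGFR1 the direction and the call held under all 12 alternatives (size factors by the DESeq2 method, scaling to library size alone, keeping every gene, a minimum of 1 CPM in 3 libraries, the DESeq2 Wald test, the replicate block and 6 fits that left out 1 library), with log2 fold changes of -0.93 to -0.90 for MET and -0.54 to -0.47 for FGFR1. Each of the other 7 tested receptors stayed short of the threshold in all 12, and the EGFR estimate ranged from -0.00, without miR-34a replicate 2, to 0.17, without miR-34a replicate 1. The correlation of same-numbered deviations from the group means was -0.04, 0.03 and -0.11, and that of different-numbered ones ran from -0.10 to 0.14. With 3 libraries in each group these values cannot tell whether a replicate number marks a shared day or culture. With the number as a replicate block MET was at -0.91 and FGFR1 at -0.51, 1023 genes fell and 807 rose, the adaptors gave 1 fall and 2 rises, the negative regulators 2 rises and the ERK outputs 0 rises. The calls lost were PLCG1 (adjusted p = 0.083), IRS4 (0.061) and SPRY2 (0.052). With library size alone IGFBP2 was lost (0.052), leaving 3 falls in the processing list. With no filter the family relatives and the adaptors each gave 1 fall. The share of falls among calls also moved with scaling: library size alone gave 1012 falls and 1046 rises, against 1167 and 938. TGFA passed without control replicate 1 (adjusted p = 0.048) and without miR-34a replicate 3 (0.044). Leaving out 1 library gave 727 to 1394 falls and 525 to 1287 rises over all genes, 1 to 2 falls and 0 to 1 rise among the relatives, 3 to 4 falls in other receptor families, 0 to 1 fall among ligands, 2 to 6 falls and 0 to 1 rise in the processing list, 0 to 2 falls and 1 to 5 rises among adaptors, 1 to 2 rises among negative regulators, and 1 to 2 falls and 0 to 1 rise among ERK outputs. The cause was not tested. Every annotated 3′ UTR gave a 7mer or 8mer match to 5 receptors against 3. By chosen transcript length ERBB2 ranked 2, MET 3, FGFR2 4, FGFR1 5 and IGF1R 6 in the control, and the other 5 kept their ranks. Depth limits AXL, which had 0 to 8 counts a library.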
